A study of Mus musculus with 6 samples.

Results

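The genes described here are the 39 members of the mouse HOX clusters, chosen by symbol as every *Hoxa*, *Hoxb*, *Hoxc* or *Hoxd* gene among the 41128 genes of the expression table. They comprise 11 genes of the HOXA cluster on chromosome 6, 10 of HOXB on chromosome 11, 9 of HOXC on chromosome 15 and 9 of HOXD on chromosome 2 (GRCm38). Their transcripts were measured by RNA sequencing in acute myeloid leukemia (AML) cells of 6 mice, 3 in the *Hoxa9*/MTV cohort (mice 1.1, 1.2 and 1.4) and 3 in the *Hoxa9*/*IRX3* cohort (mice 3.2, 3.3 and 3.5), with 1 library per mouse. In both cohorts KIT+ BM cells of CD45.1+ female donors aged 6 to 12 weeks received a retrovirus that expresses FLAG-tagged *Hoxa9*. The second retrovirus was an empty vector (MTV) in the control cohort and carried a human *IRX3* cDNA with a MYC tag in the other. Transduced cells were selected with drugs and transplanted, together with CD45.2+ support BM cells, into lethally irradiated CD45.2+ congenic female recipients. The labels give the strain as C57BL/6 for all mice. The study names the CD45.2+ mice as C57BL/6 and the CD45.1+ mice, the source of the AML cells, as B6.SJL-Ptprca Pepcb/BoyJ. When the recipients were sick, donor-derived KIT+Gr1+ AML cells were sorted from their BM. Both cohorts thus express *Hoxa9* from a viral promoter, and neither shows what cells without it would express. The study reports a later onset of AML in *Hoxa9*/*IRX3* than in *Hoxa9*/MTV recipients, so time since transplantation and cohort cannot be told apart.

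HOX genes encode homeodomain transcription factors. Each cluster is ordered along the chromosome from paralog group 1, used early and towards the head of the embryo, to group 13, used late and towards the tail, and neighbouring genes are often opened or silenced together, with trithorax complexes keeping them active and Polycomb complexes keeping them silent. In normal blood formation genes of the A and B clusters are expressed in stem and progenitor cells and are silenced as cells mature, and sustained *Hoxa9* expression blocks maturation in AML. HOX proteins bind DNA beside TALE partners of the MEIS and PBX families. The comparison addressed whether the remaining HOX genes are expressed at different levels when *IRX3* is co-expressed with *Hoxa9*.

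Levels are given as RPKM, reads scaled to the length of the gene and to the size of the library, which the authors computed over the whole span of a gene with its introns, and as the reads behind each RPKM. The library sizes by which RPKM was scaled, recovered from the deposited values, were 7979246 to 9803621 reads, a range of 1.23-fold. The study gives somewhat higher totals after filtering. Between 53.6% and 55.3% of protein-coding genes had over 3 reads in each mouse. The sorted cells carried the markers of the gate in all mice, with *Kit* at 1.63 to 3.12 RPKM and *Ly6c2*, a Gr1 antigen, at 413 to 844 RPKM. Between cohorts *Kit* and *Ly6c2* had log2 differences of -0.31 and 0.56 (limma, adjusted p = 0.323 and 0.278). *Ly6g*, also a Gr1 antigen, and *Elane* were higher in *Hoxa9*/*IRX3* leukemias, by 1.35 and 1.91 (limma, adjusted p = 0.0205 and 0.0144). The sorted cells thus differed between cohorts in part of these markers. Mouse *Irx3* had 0 reads in the 3 *Hoxa9*/MTV mice and 474, 15 and 4 reads in mice 3.2, 3.3 and 3.5, although the retrovirus carries the human gene. Summed RPKM of 4 erythroid, 4 B cell and 5 T and NK cell markers reached no more than 0.303, 0.258 and 0.0445 in any mouse. One library stood apart in the HOX clusters, that of mouse 3.3, and results are given with and without it.

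In *Hoxa9*/MTV leukemias the HOX clusters were almost silent apart from *Hoxa9*. Over 3 reads were found for 1, 3 and 3 of the 39 genes in mice 1.1, 1.2 and 1.4, against 3, 16 and 5 genes in *Hoxa9*/*IRX3* mice 3.2, 3.3 and 3.5. A read was found in at least 1 mouse for 4 genes in the control cohort (*Hoxa9*, *Hoxb3*, *Hoxb4* and *Hoxc4*) and for 18 in the *Hoxa9*/*IRX3* cohort, or for 9 of 39 in that cohort without mouse 3.3. Those 9 include *Hoxc5*, whose 1 read in mouse 3.5 was that of *Hoxc6*, a gene inside its span. All 4 genes seen in the control cohort were also seen in the other. RPKM summed over the 38 genes other than *Hoxa9* was 0.101, 0.362 and 0.346 in the control mice. It was 2.16, 21.2 and 1.65 in mice 3.2, 3.3 and 3.5. Reads of genes inside the spans of *Hoxc5* and *Hoxa3* enter this sum through both genes. The cohorts did not overlap, and the mean was 0.270 ± 0.147 (SD, n = 3) in *Hoxa9*/MTV and 8.33 ± 11.1 (SD, n = 3) in *Hoxa9*/*IRX3* mice, or 1.90 in the latter without mouse 3.3. In bulk samples such as these, fewer cells expressing a gene and less RNA per cell cannot be told apart.

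**Figure D1:**
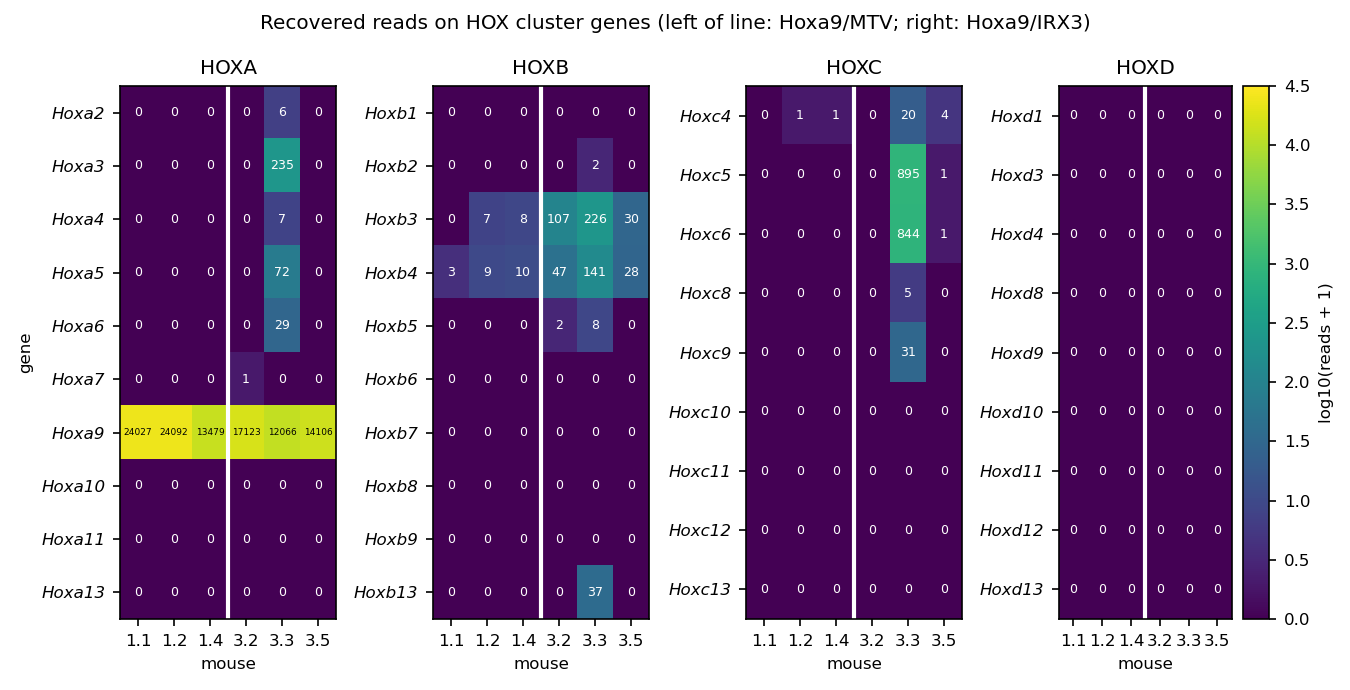
Recovered reads on HOX cluster genes (rows, by cluster and paralog group) in each mouse (columns), with the number written in each cell and the color on a log10(reads + 1) scale. *Hoxa9* is bright in all mice, *Hoxb3* and *Hoxb4* are brighter right of the white line, and blocks of HOXA and HOXC genes are lit in mouse 3.3.

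*Hoxa9*, the gene supplied by the retrovirus, was the most abundant HOX transcript in every mouse. It stood at 340, 363 and 174 RPKM in control mice 1.1, 1.2 and 1.4. It stood at 242, 154 and 221 RPKM in *Hoxa9*/*IRX3* mice 3.2, 3.3 and 3.5. The cohorts overlapped, since the lowest control mouse lay below 2 of the 3 *Hoxa9*/*IRX3* mice. On the log2(RPKM + 0.5) scale the difference was -0.46 (SE 0.33; limma, adjusted p = 0.420), with a 95% interval from -1.24 to 0.32. Reads of the retroviral cDNA and of the endogenous gene share one value here, so the level of the endogenous gene is not known. Its immediate neighbours were close to silent: *Hoxa10*, whose span begins 0.107 kb away and which is expressed in early myeloid progenitors, had 0 reads in all mice, and *Hoxa7*, 1.25 kb away on the other side, had 1 read in mouse 3.2 and 0 in the others. *Mir196b*, a microRNA gene that lies inside the *Hoxa9* span in the annotation, also had 0 reads in all mice, although polyA libraries are not made to capture short RNAs. Its mature product, from RefSeq (GRCm38.p6, chr6:52230129-52230150, minus strand), is shown because it is the product of this shared locus, with its seed (bases 2 to 8) in capitals.
mmu-miR-196b-5p: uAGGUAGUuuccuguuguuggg

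After *Hoxa9*, the members with reads in at least 5 mice were *Hoxb4* and *Hoxb3*, neighbours in the HOXB cluster 1.69 kb apart. *Hoxb4*, which expands hematopoietic stem cells when overexpressed, had 3, 9 and 10 reads (0.101, 0.321 and 0.307 RPKM) in *Hoxa9*/MTV mice 1.1, 1.2 and 1.4. It had 47, 141 and 28 reads (1.57, 4.27 and 1.04 RPKM) in *Hoxa9*/*IRX3* mice 3.2, 3.3 and 3.5. Every *Hoxa9*/*IRX3* mouse lay above every control mouse, with mouse 3.3 the highest. Mean RPKM was 0.243 ± 0.123 (SD, n = 3) against 2.29 ± 1.73 (SD, n = 3), a ratio of 9.44, or 5.38 without mouse 3.3. The log2 difference was 1.75 (SE 0.41), with a 95% interval from 0.78 to 2.73, and limma's adjusted p was 0.0621, outside the limit of 0.05.

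*Hoxb3*, which is expressed in hematopoietic stem and progenitor cells, had 0, 7 and 8 reads (0, 0.0343 and 0.0336 RPKM) in mice 1.1, 1.2 and 1.4. It had 107, 226 and 30 reads (0.491, 0.937 and 0.153 RPKM) in mice 3.2, 3.3 and 3.5. Again the cohorts did not overlap, and mouse 3.3 was the highest. Mean RPKM was 0.0226 ± 0.0196 (SD, n = 3) against 0.527 ± 0.393 (SD, n = 3), a ratio of 23.3, or 14.2 without mouse 3.3. The log2 difference was 0.90 (SE 0.29; limma, adjusted p = 0.125), a scale that holds down the change of a gene whose RPKM lies near the added 0.5. For each of these genes the exact two-sided permutation test over mice gave p = 0.1, the smallest that 3 mice against 3 allow.

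*Hoxb4* and *Hoxb3* made up 94.1% and 94.7% of the HOX reads outside *Hoxa9* in mice 1.2 and 1.4, with 3 such reads in all in mouse 1.1. They made up 98.1% of 157 such reads in mouse 3.2 (exact binomial 95% interval, 94.5% to 99.6%), 80.6% of 72 in mouse 3.5 (69.5% to 88.9%) and 23.1% of 1589 in mouse 3.3 (21.0% to 25.3%). Mouse 3.3 therefore held more reads of both genes than any other mouse, yet most of its HOX reads lay elsewhere. These intervals cover counting error only. The adjoining *Hoxb5*, a gene used to mark long-term stem cells, had 0 reads in the control mice and 2, 8 and 0 in mice 3.2, 3.3 and 3.5. *Hoxb2* had 2 reads in mouse 3.3 and 0 in the others, and *Hoxb1*, a hindbrain gene, and *Hoxb6* to *Hoxb9* had 0 in all mice.

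**Figure D2:**
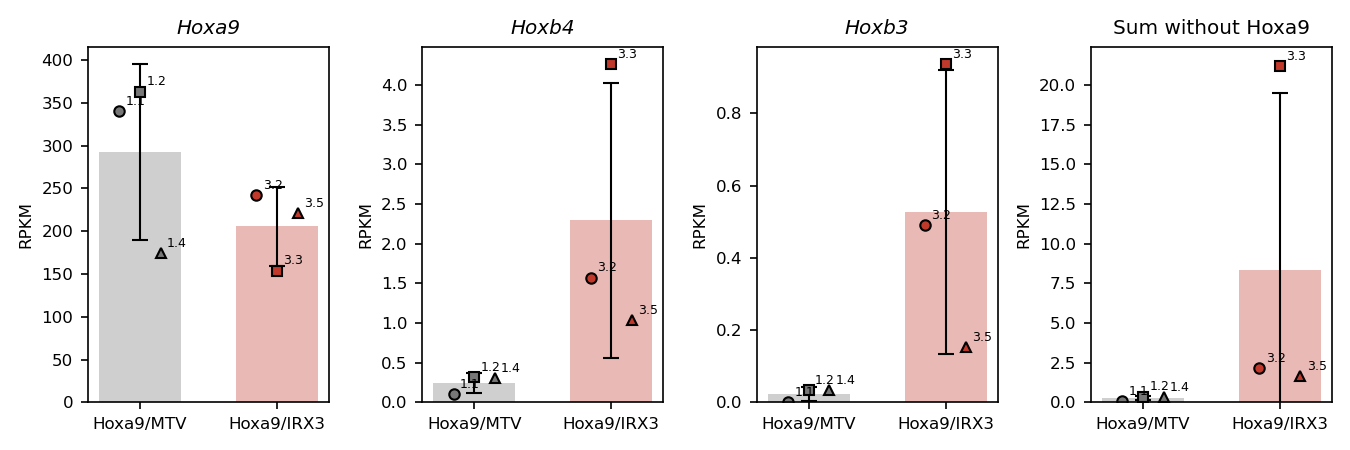
RPKM of *Hoxa9*, *Hoxb4*, *Hoxb3* and of all HOX genes but *Hoxa9* summed, in each cohort. Points are mice with their numbers, bars are means and lines are 1 SD (n = 3; the axis ends at 0). *Hoxa9* overlaps between cohorts, while in the other panels each *Hoxa9*/*IRX3* mouse lies above each *Hoxa9*/MTV mouse and mouse 3.3 lies highest.

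The sequence before the start of *Hoxb4* is shown because this gene is the member other than *Hoxa9* with reads in every mouse. It is the 250 bases upstream of the RefSeq start (chr11:96318017-96318266, GRCm38.p6, plus strand), printed 5′ to 3′ on the strand of the gene. Capitals would mark TGATNNAT (a composite site of PBX and HOX proteins), CCAAT, the E-box CACGTG or TATAAA on either strand. None of these letters occurred in this window, so none is in capitals.
Hoxb4: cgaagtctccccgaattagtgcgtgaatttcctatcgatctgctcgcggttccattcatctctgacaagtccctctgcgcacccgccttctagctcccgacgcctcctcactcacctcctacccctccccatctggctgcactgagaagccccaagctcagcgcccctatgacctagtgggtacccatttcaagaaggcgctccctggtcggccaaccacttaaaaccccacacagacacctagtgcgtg

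In the fit across all genes 10 of the 39 members could be tested, those over 0.5 RPKM in at least 1 mouse. Of these 8 passed that threshold only in mouse 3.3, and the exceptions were *Hoxa9* and *Hoxb4*. *Hoxc5* and *Hoxa3* passed it only with reads of genes inside their spans. In mouse 3.3, 15 of 895 and 127 of 235 reads remained to them. None of the 10 was called, which took a change of 2-fold or more with limma's adjusted p below 0.05, while 298 of 9522 tested genes were called (3.13%). At an unadjusted p under 0.05 there were 2 of the 10 members, *Hoxb4* and *Hoxb3*, against 24.3% of all tested genes, and limma voom on the recovered reads also called 0 members. The criterion of the study (mean RPKM differing over 2-fold with a p below 0.05 before adjustment) was applied here to the 9522 tested genes. The study itself kept fewer genes, so its counts differ. The criterion called 0 of the 10 members in either direction, where 2.26% of all tested genes were called as higher in *Hoxa9*/*IRX3* leukemias. The cohorts did not overlap, with *Hoxa9*/*IRX3* higher, for 2 of the 10 members and for 12.2% of all tested genes. The estimate was positive for 9 of the 10 members, and the median was 0.73 on the log2 scale against -0.06 over all tested genes. All 9 passed the threshold only in *Hoxa9*/*IRX3* mice, which favors positive estimates and a lack of overlap in that direction. These counts and the median are therefore description only. *Hoxb4* was called without mouse 3.3 (1.28, adjusted p = 0.0322) and without mouse 3.5 (2.10, adjusted p = 0.0447). Without mouse 3.5 *Hoxb3* was also called, at 1.19 (adjusted p = 0.0440). The number of members called was 1, 1 and 2 without mice 3.2, 3.3 and 3.5.

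**Figure D3:**
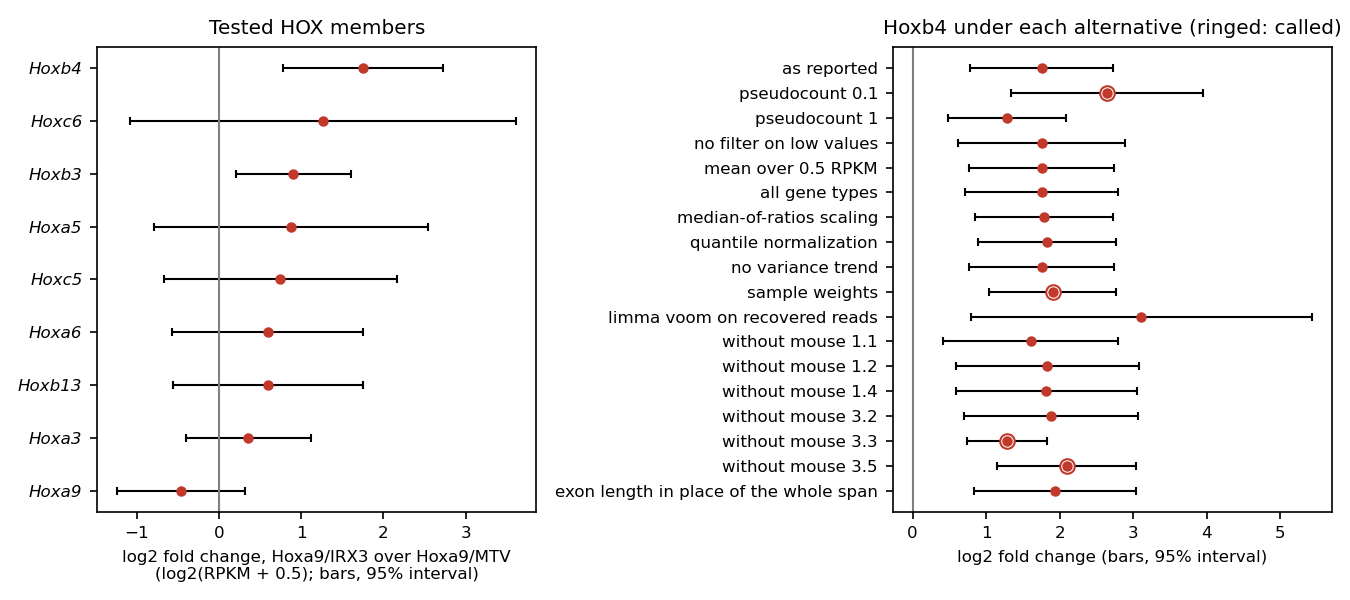
Left, log2 fold change of *Hoxa9*/*IRX3* over *Hoxa9*/MTV with its 95% interval for tested HOX genes; the intervals of *Hoxb4* and *Hoxb3* lie above 0. Right, the same for *Hoxb4* as reported and under each alternative, with a ring where it was called; each estimate lies between 1.28 and 3.11.

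Mouse 3.3 carried HOX transcripts that were read in no other mouse. Over 3 reads here and 0 in the other mice were found for 8 HOX genes, where 42 of 21397 protein-coding genes had that pattern (0.196%). The other *Hoxa9*/*IRX3* mice had 34 (mouse 3.2) and 65 (mouse 3.5) protein-coding genes of their own by the same measure, and 0 of these were HOX genes. The mouse was singled out after its values were seen, and a single library allows no test. Its library was the largest, at 1.23-fold the smallest, and the share of protein-coding genes with over 3 reads, 55.0%, lay within the range of the other mice.

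In the HOXC cluster mouse 3.3 had 844 reads on *Hoxc6* (6.32 RPKM), a gene of the thoracic region of the embryo, against 1 read in mouse 3.5 and 0 in the other mice. *Hoxc5* was listed at 895 reads in mouse 3.3, but its annotated span contains *Hoxc6*, *Hoxc8* and *Hoxc9*, which account for 880 of them and leave 15. *Hoxc9*, a gene of the lower thoracic region, had 31 reads there, and *Hoxc8*, which patterns the thoracic vertebrae, had 5; both had 0 in every other mouse. *Hoxc4*, which is expressed in lymphoid and progenitor cells, had 0, 1 and 1 reads in the control mice and 0, 20 and 4 in mice 3.2, 3.3 and 3.5. The reads thus ran without a gap from *Hoxc4* to *Hoxc9* and ended before *Hoxc10*, 4.55 kb further on. *Hoxc10* to *Hoxc13*, which act in the hindlimb, tail and skin, had 0 reads in all mice. With reads counted once, HOXC held 915 of the 1589 HOX reads of mouse 3.3 outside *Hoxa9* (57.6%).

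The HOXA cluster showed a similar block in mouse 3.3. *Hoxa5*, which takes part in lung and thoracic development, had 72 reads (2.59 RPKM), *Hoxa6* had 29 (1.21 RPKM), *Hoxa4* had 7 and *Hoxa2*, a hindbrain gene, had about 6, all with 0 reads in the other 5 mice. *Hoxa3*, needed for the thymus and parathyroid, was listed at 235 reads, of which 127 remained after those of *Hoxa4*, *Hoxa5* and *Hoxa6* inside its span, and it too had 0 elsewhere. The block ended before *Hoxa7*, which lies 1.15 kb beyond the span of *Hoxa3* and 5.77 kb beyond that of *Hoxa6*, and *Hoxa11* and *Hoxa13*, which act in the limb and genital tract, had 0 reads in all mice, as *Hoxa10* did. The 250 bases upstream of the RefSeq starts of *Hoxa6* (chr6:52208673-52208922) and *Hoxa7* (chr6:52218574-52218823), both GRCm38.p6 and on the minus strand, are shown because these neighbours had 29 and 0 reads in mouse 3.3, although the *Hoxa6* window also lies inside the span of *Hoxa3*. Capitals mark matches to the same 4 motifs, and the letters were printed 5′ to 3′ on the strand of the gene.
Hoxa6: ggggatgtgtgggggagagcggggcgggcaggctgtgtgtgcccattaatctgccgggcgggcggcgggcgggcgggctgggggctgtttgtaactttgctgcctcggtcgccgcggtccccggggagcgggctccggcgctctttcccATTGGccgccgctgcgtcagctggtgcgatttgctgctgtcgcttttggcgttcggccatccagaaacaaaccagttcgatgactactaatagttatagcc
Hoxa7: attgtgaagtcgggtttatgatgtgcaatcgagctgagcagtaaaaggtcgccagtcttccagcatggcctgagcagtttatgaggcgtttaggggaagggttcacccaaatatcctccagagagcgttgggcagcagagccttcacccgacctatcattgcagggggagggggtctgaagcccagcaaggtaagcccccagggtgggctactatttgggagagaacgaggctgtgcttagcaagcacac

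*Hoxa6* held 1 CCAAT match, in reverse (ATTGG) and beginning 101 bases before the start, and *Hoxa7* held 0 matches to any of the 4. CCAAT occurred in 33.9% of 32851 promoter windows of this length, TATAAA in 12.4%, TGATNNAT in 7.68% and CACGTG in 6.02%. The HOX members had 24 such windows from 22 of the 39 genes, of which 14 held CCAAT and 4 held each of the other motifs. A match is a description of letters only.

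Along the clusters, reads in mouse 3.3 lay mainly in the lower-numbered paralog groups. Of the 23 members of groups 1 to 8, 13 had over 3 reads in that mouse, against 2 of the 15 members of groups 9 to 13 other than *Hoxa9*. Those 2 were *Hoxc9*, at the edge of the HOXC block, and *Hoxb13*, a gene of the tail and prostate that lies 74.0 kb from *Hoxb9* and had 37 reads (1.21 RPKM) with 0 in the other mice. In HOXB the reads ran from *Hoxb2* to *Hoxb5* and ended before *Hoxb6*, 1.77 kb away. None of the 9 HOXD genes, which act in the limb, trunk and genital tract, had a read in any mouse. In all, 21 members had 0 reads in each mouse, which at 3 reads allows a level of up to 0.00838 to 0.203 RPKM depending on gene length and library. The 8 members that had reads but were not tested stayed at or below 0.365 RPKM, and their exact two-sided permutation p over the 6 mice lay between 0.4 and 1.

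**Figure D4:**
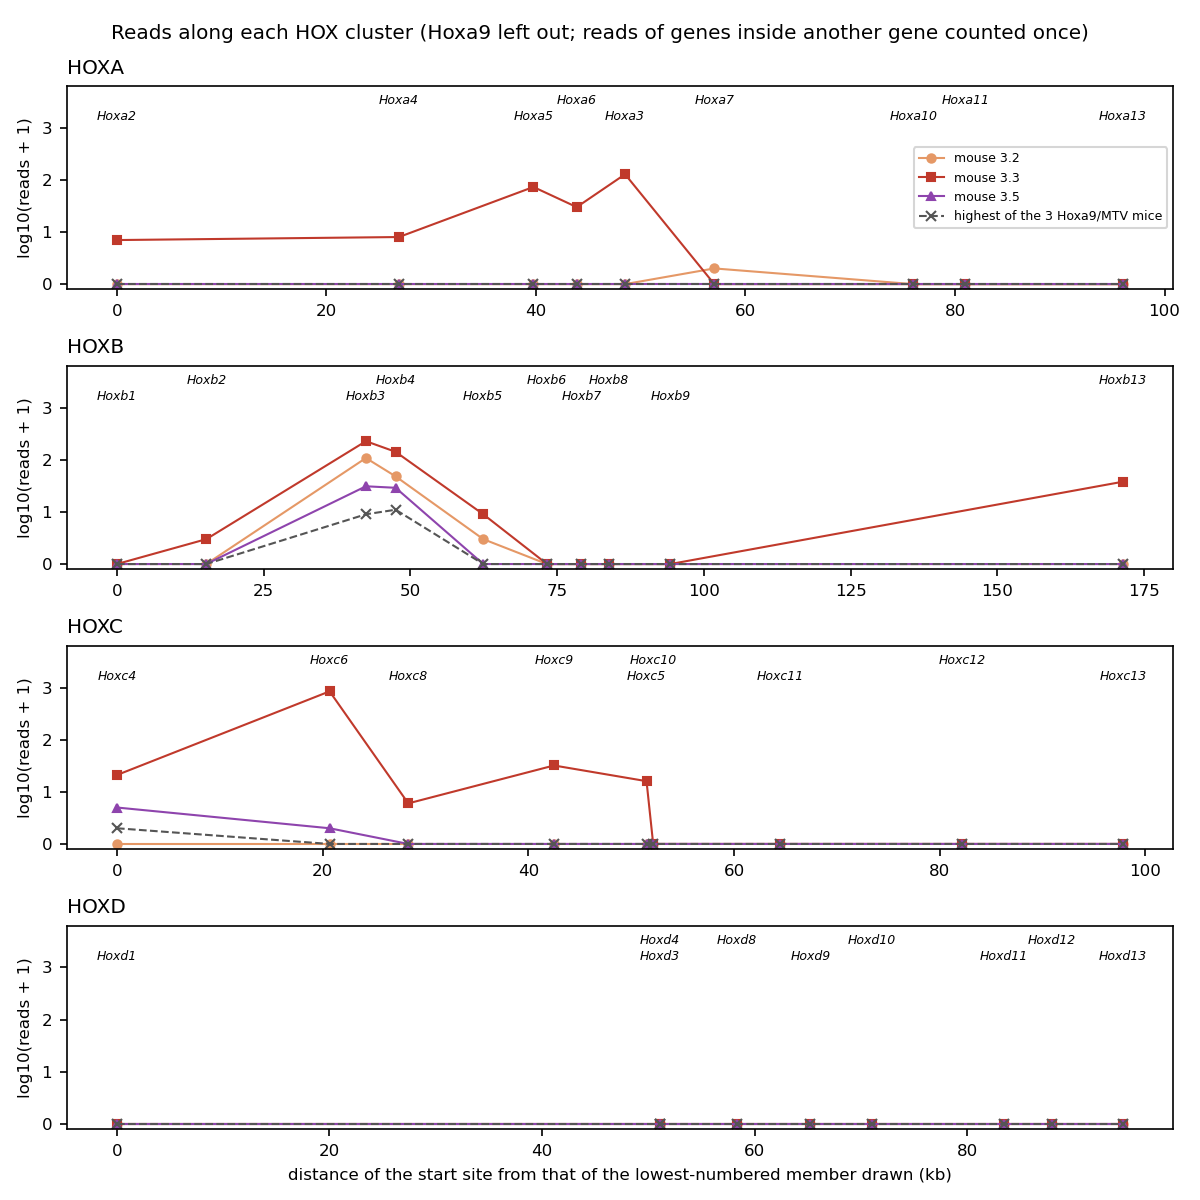
Reads on HOX genes, as log10(reads + 1), against the distance of its start site from that of the lowest-numbered member drawn (kb), for the 3 *Hoxa9*/*IRX3* mice and for the highest of the 3 *Hoxa9*/MTV mice; *Hoxa9* is left out and reads of genes inside another gene are counted once. Mouse 3.3 lies above 0 in HOXA up to *Hoxa3*, in HOXC up to *Hoxc5* with the peak at *Hoxc6*, and at *Hoxb13*. The 3 *Hoxa9*/*IRX3* mice and the line of highest control values share the peak at *Hoxb3* and *Hoxb4*, and HOXD is at 0.

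Markers of cells other than the sorted ones were looked at in the same mouse. Summed over 4 stromal markers, RPKM was 0.00369 to 0.106 in the control mice and 0.147 to 0.390 in *Hoxa9*/*IRX3* mice, with the highest value in mouse 3.3. There *Cxcl12*, a chemokine of stromal cells, had 46 reads against 0 to 13 in the other mice, *Pdgfra* had 7 against at most 1, and *Col1a1* and *Lepr* had 1 and 3. Megakaryocyte markers summed to 0.0485 RPKM in that mouse and the T and NK cell markers to 0. The 3 monocyte and macrophage markers with values summed to 10.1 RPKM there, against 14.9 to 24.9 in the control mice. Within the *Hoxa9*/*IRX3* cohort that sum reached 51.7 RPKM. The sum of 4 markers of mature neutrophils in mouse 3.3 lay within the range of the control mice, 6.99 to 9.57 RPKM. The part of these cells in the HOX reads was not tested.

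The order of the members by level depended on the length by which reads were divided. Per kilobase of whole span the *Hoxa9*/*IRX3* means ran from *Hoxa9* (206 RPKM) to *Hoxb4* (2.29), *Hoxc6* (2.11), *Hoxa5* (0.864), *Hoxc5* (0.610) and *Hoxb3* (0.527). Per kilobase of exon they ran from *Hoxa9* (295 RPKM) to *Hoxc6* (11.9), *Hoxc5* (9.86), *Hoxb3* (3.05) and *Hoxb4* (3.01). The values of *Hoxc5* hold the reads of the genes inside its span and are not its own level. Without mouse 3.3 the means per kilobase of span were 232 RPKM for *Hoxa9*, 1.31 for *Hoxb4* and 0.322 for *Hoxb3*, but 0.0046 for *Hoxc6*, 0.0013 for *Hoxc5* and 0 for *Hoxa5*, so the places of the last 3 rest on mouse 3.3. Below *Hoxa9* the order was not tested. The SD of *Hoxc6* and *Hoxa5* between mice exceeded their means and that of *Hoxb4* was 1.73 RPKM. Such an SD does not measure how far genes differ within the same mouse. In the *Hoxa9*/MTV cohort both lengths gave the order *Hoxa9*, *Hoxb4*, *Hoxb3* and *Hoxc4*, the last at 0.00416 RPKM per kilobase of span.

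Of 44 other genes that lie within the clusters 13 had a read, 2 of them in the control mice and all 13 in mouse 3.3. For 3 of the 44 every *Hoxa9*/*IRX3* mouse lay above every control mouse, beside 12.2% of all tested genes. The 44 are not among the tested genes, so this count is description only. *Hotairm1*, a non-coding RNA of the HOXA cluster expressed in myeloid cells, had 0 reads in the control mice and 2, 21 and 5 in mice 3.2, 3.3 and 3.5. *Hoxb5os*, antisense over *Hoxb5*, had 0 reads in the control mice and 5, 9 and 1 in the same order. Use of strand in counting is not given in the sources used here. *Hoxaas3*, antisense over *Hoxa4*, *Hoxa5* and *Hoxa6*, had 12 reads in mouse 3.3, where *Hoxa5* alone had 72. Reads of opposite strands were therefore kept apart there. *Gm27867*, a small RNA gene of HOXA, had 0 reads in the control mice and 1, 8 and 5 in mice 3.2, 3.3 and 3.5, or 0.903, 6.53 and 5.01 RPKM over its short span. It lies inside the *Hotairm1* span, as *Gm27861* and *Gm27868* do, so its reads may be among those of *Hotairm1*. The short genes *Gm27861*, *Gm27868* and *Gm27477* in HOXA and *Gm27898* and *Gm27605* in HOXB had 2, 2, 4, 6 and 3 reads in mouse 3.3, and of these *Gm27477* also had 3 in mouse 3.5. The pseudogene *Gm11539* in HOXB differed from all of these in having 11 to 27 reads in every mouse. *Mir10a*, between *Hoxb4* and *Hoxb5*, had 1 read, in mouse 3.3.

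Of 18 flanking genes with values, 4 had 0 reads in all mice and 11 were tested. Of these 0 were called higher and 1 was called lower, where 1.10% of all tested genes were called higher and 2.03% lower. That gene was *Snx10*, a sorting nexin gene beyond HOXA, with 1.35, 1.46 and 1.60 RPKM in the control mice and 0.292, 0.350 and 0.839 in mice 3.2, 3.3 and 3.5 (log2 difference -1.02, SE 0.21; adjusted p = 0.0458). It was not called without mouse 3.3 (-0.93, adjusted p = 0.0768). The remaining 10 flanking genes had estimates between -0.49 (*Hnrnpa3*, beyond HOXD) and 0.31 (*Atp5g1*, beyond HOXB), and included *Skap2* and *Hibadh* (HOXA), *Tax1bp1* (HOXA), *Lnp* (HOXD), and *Smug1*, *Cbx5*, *Hnrnpa1* and *Calcoco1* (HOXC).

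No regulator of the clusters was called. Of 22 tested trithorax and DOT1L regulators and 24 tested Polycomb genes 0 were called, with median log2 differences of 0.00 and -0.15 against -0.06 over all tested genes. Limma's adjusted p was under 0.05 for 1 gene of the first list and 0 of the second. That gene was *Psip1*, named after its values were seen, at a log2 difference of 0.55 (adjusted p = 0.0455), short of the 2-fold limit. The most abundant were *Wdr5*, *Men1* and *Npm1* in the first list, at log2 differences of 0.00, -0.01 and -0.05, and *Bap1* and *Rbbp4* were among the most abundant in the second, at -0.17 and -0.35. Of the CDX and retinoid genes, which act upstream of HOX clusters in the embryo, 0 of 6 tested were called, and *Cdx1*, *Cdx2* and *Cdx4* had 0 reads in all mice. *Rxrb*, *Ctcf* and *Rarg*, the most abundant of that list, had log2 differences of -0.69, -0.12 and -0.01 with adjusted p-values of 0.0858, 0.569 and 0.987. *Cyp26a1*, which degrades retinoic acid and was named after its values were seen, had 2, 1 and 0 reads in the control mice and 72, 10 and 41 in mice 3.2, 3.3 and 3.5. Its difference of 1.57 had an adjusted p of 0.0876, and without mouse 3.3 it was called at 2.08 (adjusted p = 0.00868).

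Of the 12 genes listed with the TALE partners 5 were tested and 0 were called. *Pbx2*, *Tgif1* and *Pknox1*, the most abundant, had log2 differences of -0.41, -0.34 and -0.16. *Meis1*, the partner of *Hoxa9* in many leukemias and also named after its values were seen, had 408, 398 and 1174 reads in the control mice and 0 in each *Hoxa9*/*IRX3* mouse. Over its long span this came to 0.332, 0.344 and 0.872 RPKM, and on the log2(RPKM + 0.5) scale the difference was -0.98 (adjusted p = 0.0631), just outside both limits. Per kilobase of exon *Meis1* was called at an adjusted p of 0.00489, and with a pseudocount of 0.1 at 0.0399. Mouse 3.3, with its HOX transcripts, was as devoid of *Meis1* reads as mice 3.2 and 3.5.

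Of 20 genes reported as HOXA9 targets in leukemia 16 were tested, of which 1 was called higher and 3 lower, beside 1.10% and 2.03% of all tested genes. The 3 lower ones were *Cd34*, a progenitor surface protein (-3.84, adjusted p = 0.0206), *Ccnd1*, a cell cycle gene (-2.91, adjusted p = 0.00553), and *Flt3*, a progenitor cytokine receptor (-1.35, adjusted p = 0.0102). *Cebpa*, *Pim1* and *Sox4*, the most abundant of the list, had estimates of 0.16, 1.45 and -1.12 with adjusted p-values of 0.727, 0.262 and 0.419.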

How the data were processed

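RNA of KIT+Gr1+ AML cells from 6 mice was sequenced as strand-specific polyA libraries with paired ends of 75 bases. The authors aligned reads with Bowtie2 2.2.1 to GRCm38, filtered alignments at a Phred quality of 20 with SAMtools 0.1.19, assigned reads to Ensembl release 76 genes and deposited RPKM per gene and mouse. Reads behind each RPKM were recovered from the steps of the deposited values; they were whole within 0.01 for 65.0% of tested genes and for 17 of the 18 HOX members with reads (*Hoxa2* is approximate). Gene types, spans and exon lengths came from GENCODE M21, promoters and microRNAs from RefSeq. Protein-coding genes over 0.5 RPKM in at least 1 mouse (9522) were fitted with limma 3.58.1 under R 4.3.3 as log2(RPKM + 0.5), using a trend in the variance, and p-values were adjusted by Benjamini-Hochberg; called genes had an adjusted p under 0.05 and a 2-fold change. The script was tested on simulated data. HOX genes are named throughout; of other lists, called members and the 3 most abundant, and flanking and non-coding genes over 0.5 RPKM. Some genes that this rule names are not reported here, in text or figures, and remain in the counts. *Elane*, *Ly6g* and *Retnlg*, on the lists of cell markers, were also called higher. The members and lists were chosen with earlier results of these data known. Whether the mice of a cohort received 1 pool of transduced cells is not given in the sources used here, so p-values measure the spread between these mice.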

Additional observations from a re-analysis of the deposited data

How the results depend on the processing

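No HOX estimate changed direction, with 149 of 155 estimates of single HOX members staying on their side of the limits and 6 passing them. The count of called HOX members, 0 as reported, was 1 with a pseudocount of 0.1 (*Hoxb4*, 2.64, adjusted p = 0.0465), 1 with sample weights (*Hoxb4*, 1.90, adjusted p = 0.0352), and 0 to 2 when 1 mouse was left out. *Hoxb4* was called in 4 of its 17 alternatives, with adjusted p-values between 0.0322 and 0.185, and *Hoxb3* ranged from 0.0440 to 0.306. The members below the threshold, 29 as reported, ranged from 29 to 37 when 1 mouse was left out. Calls in the other HOX lists, 5 as reported, were 3 with a pseudocount of 1, 2 without a filter on low values, 9 with exon length in place of span (chosen after seeing the data) and 1 to 6 when 1 mouse was left out, where fewer mice enter the fit. The members detected in every *Hoxa9*/MTV mouse rose from 1 to 2 when any read was counted, the second being *Hoxb4*. With exon length *Hoxb4* moved from rank 2 to rank 5 and *Hoxc6* from rank 3 to rank 2. Summed RPKM without *Hoxa9* ranged from 0.223 to 0.354 in *Hoxa9*/MTV and from 1.90 to 11.7 in *Hoxa9*/*IRX3* leukemias when 1 mouse was left out, the lowest being without mouse 3.3. Apart from exon length and *Hoxb4* detection, the cause of these changes was not tested. No paired analysis was possible because the mouse numbers of the cohorts share none. Counts under about 10 reads, as for *Hoxb4* in the control mice, limit the precision of any ratio.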
